A study of Mus musculus with 9 samples.

Results

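The BCL2 family of survival and death genes was followed in macrophages exposed to fibroblast-conditioned medium. The members were 10 genes chosen by symbol among the 53465 genes of the count table: Bcl2, Bcl2l1, Mcl1, Bax, Bak1, Bcl2l11, Bbc3, Pmaip1, Bid and Bad. All 10 were found, and all 10 passed the filter on low counts that left 11950 genes for testing.

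RNA-Seq libraries were made from bone marrow-derived macrophages (BMDMs) of male wild-type C57BL/6 mice, grown in DMEM with serum and 50 ng/ml CSF1, the growth factor that keeps macrophages alive. There were 9 libraries in 3 groups of 3: cells left untreated (UNX), and cells given medium conditioned by pulmonary artery adventitial fibroblasts of control calves (CO-CM) or of calves with hypoxia-induced pulmonary hypertension (PH-CM). The study asked how each fibroblast medium changes macrophage gene expression, and all 3 pairs of groups were compared. Each medium was a pool over several fibroblast populations, so the 3 replicates repeat the macrophage culture, with no separate calves behind them. The medium was bovine and the macrophages were murine, and the labels give the treatment time as 16 h in one field and 24 h in another, while the study's methods name a time between these values. The sources used here name CSF1 for the growth medium only and do not say whether it was added to the conditioned media. The methods name bovine calf serum for the fibroblast cultures. Fetal bovine serum was added to the conditioned media and was the serum of the macrophage growth medium. In the comparisons with UNX, the fibroblast products and any difference in CSF1 supply, serum or base medium therefore cannot be told apart.

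Libraries held 62017933 to 84314201 counted reads, and no pair of replicates agreed within sampling noise. Macrophage markers were abundant, with 10 of 10 tested and summed levels of 12295 to 13075 CPM, the reads of a gene scaled to library depth, in UNX, 19646 to 20597 in CO-CM and 22187 to 24045 in PH-CM. Lyz2 made up most of these sums, at a mean of 7251, 12814 and 15204 CPM. Not every marker rose with both media, as Cd14 was at a mean of 309 CPM in UNX, 174 in CO-CM and 831 in PH-CM. Neutrophil, lymphocyte and dendritic cell markers were at or near 0, with 0 of 7, 0 of 6 and 0 of 4 passing the filter. Their sums stayed at or under 1.01, 0.180 and 0.805 CPM, and Ly6g and Ncr1 had no read in any library. Of 8 fibroblast markers 6 passed, with summed levels of 197 to 249 CPM in UNX, 267 to 318 in CO-CM and 249 to 335 in PH-CM. Collagen genes made up most of these sums. Col1a1 was at a mean of 115 CPM in UNX, 146 in CO-CM and 148 in PH-CM. Col1a2 was at 75.9, 109 and 104, and Col3a1 at 17.8, 21.5 and 35.5. Pdgfrb was at 3.91, 4.11 and 4.36, and the means of Dcn and Pdgfra were lower still. Lum and Thy1 did not pass the filter. The source of these transcripts and their part in the results were not tested.

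Cells commit to mitochondrial apoptosis when BAX or BAK, the effectors, open pores in the outer mitochondrial membrane and let cytochrome c out. BCL2, BCL-XL (Bcl2l1) and MCL1, the guardians, hold the effectors in check. BH3-only proteins such as BIM (Bcl2l11), PUMA (Bbc3), NOXA (Pmaip1), BID and BAD bind the guardians, and some of them also activate the effectors, through a short helix called the BH3 domain. Macrophages depend on CSF1 signaling to keep this balance on the side of survival.

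The BH3 domain is what the 3 branches share, and its core is shown for the 9 members other than Pmaip1. Each sequence is 36 bases of coding sequence from the GENCODE transcripts of GRCm38, written in the sense direction, and each lies within 1 exon. Capitals mark the codons of the conserved leucine and the conserved aspartate of the core.
Bcl2 (chr1:106712575-106712610, minus strand): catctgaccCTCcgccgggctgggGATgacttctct
Bcl2l1 (chr2:152829697-152829732, minus strand): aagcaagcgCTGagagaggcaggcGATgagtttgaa
Mcl1 (chr3:95659427-95659462, plus strand): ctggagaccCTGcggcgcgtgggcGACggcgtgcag
Bax (chr7:45465997-45466032, minus strand): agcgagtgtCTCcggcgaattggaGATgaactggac
Bak1 (chr17:27022531-27022566, minus strand): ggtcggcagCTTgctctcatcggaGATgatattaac
Bcl2l11 (chr2:128147141-128147176, plus strand): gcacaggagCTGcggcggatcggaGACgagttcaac
Bbc3 (chr7:16313764-16313799, plus strand): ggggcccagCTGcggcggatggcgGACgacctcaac
Bid (chr6:120897289-120897324, minus strand): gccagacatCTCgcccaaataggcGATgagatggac
Bad (chr19:6950783-6950818, plus strand): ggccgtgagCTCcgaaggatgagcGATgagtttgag
The pattern searched was a leucine, any 3 residues, then glycine, alanine or serine, then aspartate, and it occurred once in the coding sequence of each of these 9 genes. The capitals hold the same 2 amino acids in every line because the search required them. In these lines leucine is written with 3 different codons and aspartate with both of its codons.

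Both conditioned media were accompanied by lower Bcl2 and Bcl2l1 and by higher Mcl1 and Bcl2l11. With PH-CM against UNX, 8 of the 10 members passed the test, 3 higher (Mcl1, Bcl2l11 and Bad) and 5 lower (Bcl2, Bcl2l1, Bak1, Pmaip1 and Bid). The test was edgeR's quasi-likelihood test, and a gene was called where its adjusted p (FDR) was 0.05 or less and its fold change 1.2 or more. Of all genes tested, 63% were called in this comparison, 31.3% higher and 31.7% lower, so 8 of 10 is not far from what most genes did. CO-CM against UNX also called 8 members, 3 higher (Mcl1, Bcl2l11 and Bbc3) and the same 5 lower, against 57% of all genes, 28% higher and 28.9% lower. In bulk RNA, a change in how many cells carry a transcript and a change in its amount per cell cannot be told apart. The comparisons with UNX share the UNX libraries and are not independent of each other.

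**Figure D1:**
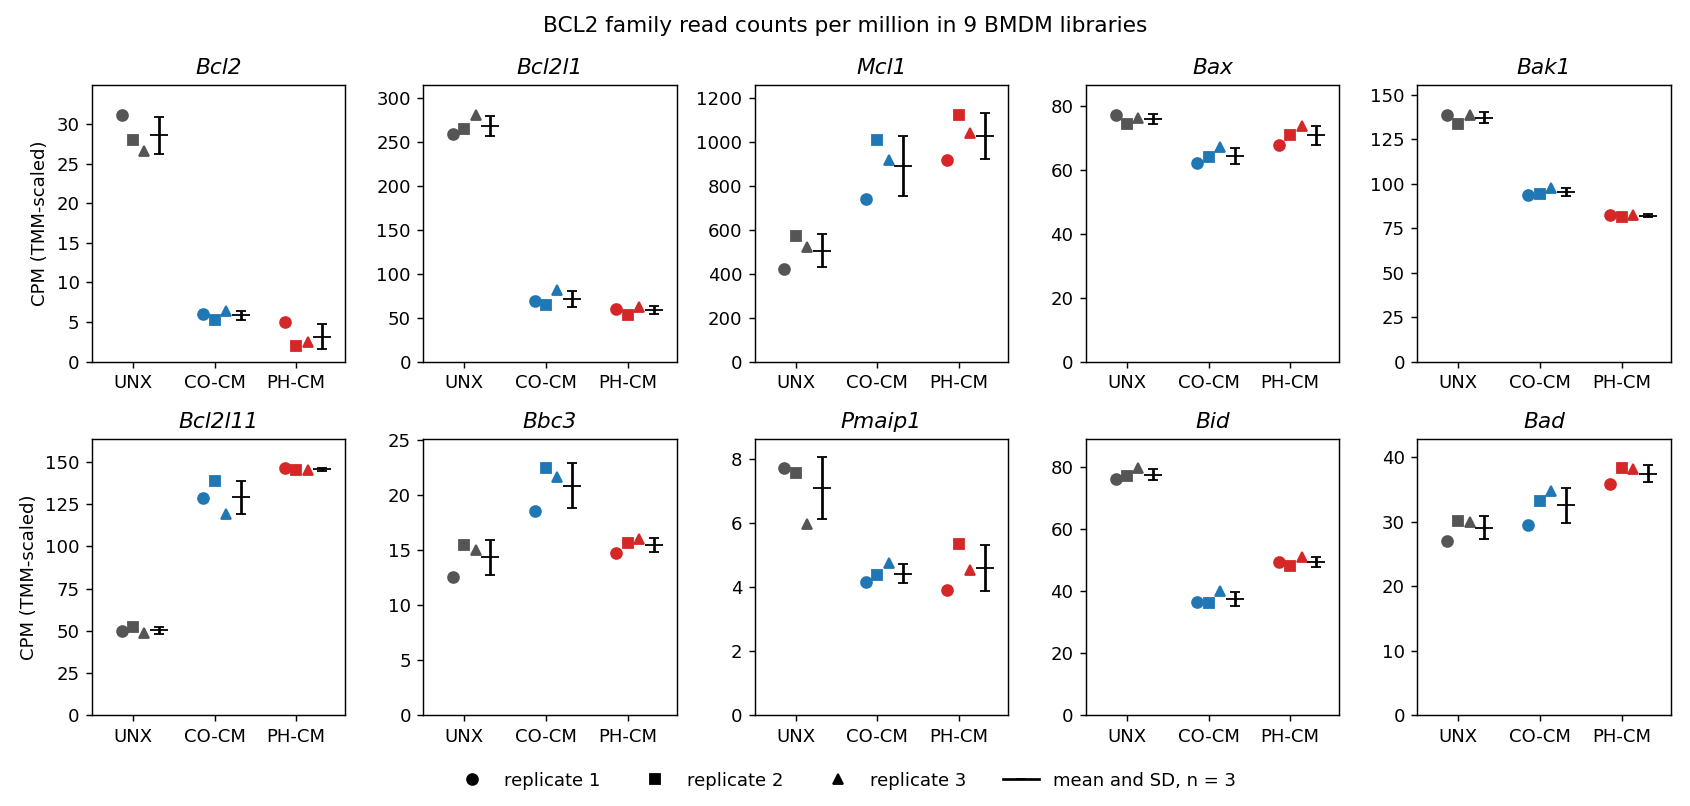
CPM of each of the 10 genes (y axis, linear from 0, scaled by TMM) in the 9 libraries by group (x axis); symbols are replicates, and the bar beside them is the mean and SD of 3 libraries. Bcl2 and Bcl2l1 drop from UNX to both media, Mcl1 and Bcl2l11 climb, and Bbc3 is highest in CO-CM, at 18.5 to 22.5.

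Among the guardians, Bcl2 fell furthest. Bcl2 (chr1:106538178-106714274, minus strand, GRCm38) encodes the founding survival protein of the family. It stood at 31.2, 27.9 and 26.6 CPM in the 3 UNX libraries, at 6.04, 5.25 and 6.34 in CO-CM and at 4.98, 2.03 and 2.49 in PH-CM. No library of one group lay within the range of another, but PH-CM replicate 1 was close to the lowest CO-CM library. The log2 fold change was -2.28 (SE 0.239, FDR = 1.23e-05) for CO-CM and -3.17 (SE 0.255, FDR = 1.23e-06) for PH-CM against UNX, a level 4.86-fold and 8.97-fold lower. Of all genes tested, 98.2% changed less than Bcl2 under PH-CM. Between the media, Bcl2 was lower with PH-CM by 0.89 on the log2 scale (95% interval -1.46 to -0.31, FDR = 0.0207). That call rested on few reads, 126 to 335 per PH-CM library, and it was lost without CO-CM replicate 3 (log2 fold change -0.83, FDR = 0.0654), without PH-CM replicate 2 (-0.65, FDR = 0.0655) and without PH-CM replicate 3 (-0.74, FDR = 0.0801).

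Bcl2l1 (chr2:152780668-152831728, minus strand), the gene for BCL-XL, was the second guardian in UNX by RPKM, the reads per gene length and depth that allow genes to be compared. Its levels were 259, 264 and 281 CPM in UNX, 68.6, 64.3 and 82.0 in CO-CM and 59.8, 53.3 and 62.5 in PH-CM. Every treated library lay more than 3-fold below the lowest UNX library. The log2 fold change was -1.91 (SE 0.0905, FDR = 4.67e-08) with CO-CM and -2.20 (SE 0.0916, FDR = 1.06e-08) with PH-CM. Between the media the groups did not overlap, yet the gap was small, with a log2 fold change of -0.29 (95% interval -0.49 to -0.09, FDR = 0.0258). The call was lost without CO-CM replicate 3 (-0.18, FDR = 0.0859), PH-CM replicate 1 (-0.30, FDR = 0.0593) or PH-CM replicate 2 (-0.23, FDR = 0.105). The annotation lists 9 transcripts of Bcl2l1. Splicing is known to yield BCL-XL and a shorter, death-promoting form, which the counts per gene do not separate.

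Mcl1 (chr3:95658788-95663176, plus strand), a guardian protein with a very short lifetime, moved the other way. It stood at 425, 571 and 524 CPM in UNX, 743, 1012 and 917 in CO-CM and 920, 1126 and 1044 in PH-CM. The library numbered 1 was the lowest in each group, and every treated library lay above every UNX library. Mcl1 rose by 0.81 on the log2 scale with CO-CM (SE 0.132, FDR = 0.000276) and by 1.02 with PH-CM (SE 0.132, FDR = 4.42e-05), 1.76-fold and 2.03-fold. PH-CM and CO-CM overlapped, with a log2 difference of 0.21 (95% interval -0.08 to 0.50, FDR = 0.239). With the replicate number as a block the difference was 0.22 (FDR = 0.000764), still under the 1.2-fold limit.

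Bcl2 and Bcl2l11, the members that fell and rose most, are shown with the 250 bases before their start, from the RefSeq promoter table of GRCm38.p6, in the direction of the gene. Capitals mark matches, on either strand, to the GC box GGGCGG, to CCAAT and to the FOXO motif GTAAACA; TTCNNNGAA (STAT), TGACGTCA (CRE), TGANTCA (AP-1) and CACGTG (E-box) were searched too and matched neither window.
Bcl2 (chr1:106714291-106714540, minus strand): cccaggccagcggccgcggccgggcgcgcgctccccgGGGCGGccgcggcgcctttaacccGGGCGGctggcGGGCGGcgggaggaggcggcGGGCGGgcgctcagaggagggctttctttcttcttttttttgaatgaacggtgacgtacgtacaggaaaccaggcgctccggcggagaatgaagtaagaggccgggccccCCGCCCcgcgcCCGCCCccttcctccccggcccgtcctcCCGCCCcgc
Bcl2l11 (chr2:128125788-128126037, plus strand): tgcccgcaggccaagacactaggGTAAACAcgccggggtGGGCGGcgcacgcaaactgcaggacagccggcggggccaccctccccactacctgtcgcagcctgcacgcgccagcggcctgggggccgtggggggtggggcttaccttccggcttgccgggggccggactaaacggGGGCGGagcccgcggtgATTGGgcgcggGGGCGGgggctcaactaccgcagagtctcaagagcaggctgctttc
The Bcl2 window held 7 GC boxes and was 74.8% G and C, against a median of 52.4% over 32851 RefSeq windows of the same length. Windows of the members ran from 47.6% (Bcl2l1) to 81.6% (Bbc3), the latter also with 7 GC boxes. The Bcl2l11 window held 3 GC boxes, 1 CCAAT box and 1 FOXO motif. Over all windows, 32.7% held a GC box, 33.8% a CCAAT box and 3.17% the FOXO motif. A match to these letters is a description of the window, not a binding site. Bcl2l11 has a second window in the table, at chr2:128127325-128127574, in which GTAAACA was not found. The FOXO motif was not particular to Bcl2l11 among the members, as a window of Bbc3 (chr7:16310011-16310260) held it too.

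Against UNX, the effectors moved less than the guardians. Bak1 (chr17:27019810-27029009, minus strand), which encodes the effector resident in the outer mitochondrial membrane, stood at 139, 134 and 139 CPM in UNX. It was at 93.9, 94.1 and 97.7 in CO-CM and at 82.4, 81.2 and 82.6 in PH-CM. The 3 groups were stacked without overlap, UNX highest and PH-CM lowest. Bak1 fell by 0.52 on the log2 scale with CO-CM (SE 0.0386, FDR = 9.16e-07) and by 0.74 with PH-CM (SE 0.0387, FDR = 5.13e-08). Between the media the log2 fold change of -0.22 passed the FDR (0.00153) but not the fold limit. Bax (chr7:45461697-45466898, minus strand), whose protein moves from the cytosol to mitochondria on activation, stood at 77.4, 74.4 and 76.5 CPM in UNX, 62.2, 64.0 and 67.1 in CO-CM and 68.0, 71.1 and 73.8 in PH-CM. Bax was not called in any comparison. Its log2 fold change was -0.24 with CO-CM (FDR = 0.00108, a 1.18-fold decrease just under the limit), -0.10 with PH-CM (95% interval -0.21 to 0.00, FDR = 0.0751) and 0.14 between the media (FDR = 0.0420, under the fold limit).

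The BH3-only genes went in different directions. Bcl2l11 (chr2:128126038-128162547, plus strand) encodes BIM, which binds every guardian and can activate BAX and BAK. It stood at 49.7, 52.3 and 48.7 CPM in UNX, 129, 139 and 119 in CO-CM and 146, 145 and 145 in PH-CM. Every treated library was more than 2-fold above the highest UNX library. The log2 fold change was 1.36 (SE 0.0573, FDR = 2.11e-08) with CO-CM and 1.53 (SE 0.0575, FDR = 4.90e-09) with PH-CM. PH-CM lay above CO-CM in every library, by 0.17 on the log2 scale (95% interval 0.05 to 0.30, FDR = 0.0314), which did not reach 1.2-fold. The annotation lists 8 transcripts, and the counts do not tell the BIM isoforms apart.

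Bid (chr6:120891930-120916853, minus strand), which links death receptors to mitochondria once caspase-8 cuts its protein, stood at 76.0, 76.9 and 79.5 CPM in UNX. It was at 36.4, 36.0 and 40.1 in CO-CM and at 49.2, 48.0 and 51.0 in PH-CM. CO-CM was thus lowest and PH-CM lay between, with no overlap. Bid fell by 1.05 on the log2 scale with CO-CM (SE 0.0523, FDR = 6.40e-08) and by 0.65 with PH-CM (SE 0.0519, FDR = 1.17e-06). It was 1.32-fold higher with PH-CM than with CO-CM (log2 fold change 0.40, SE 0.0523, FDR = 0.000213). Bid shares 628 exonic bases with Bcl2l13 on the opposite strand. No strand or overlap option is among the study's listed counting parameters, and by the defaults of the tool reads in exons of both genes are left unassigned, so the Bid counts lack those bases. Bcl2l13 itself changed by -0.32 with CO-CM, -0.34 with PH-CM and -0.02 between the media.

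Bbc3 (chr7:16308393-16318205, plus strand) encodes PUMA, the BH3-only protein best known as a target of p53. It stood at 12.6, 15.5 and 15.1 CPM in UNX, 18.5, 22.5 and 21.7 in CO-CM and 14.7, 15.7 and 16.1 in PH-CM. The CO-CM libraries were above all others, while PH-CM overlapped UNX. Bbc3 rose with CO-CM by 0.54 on the log2 scale (SE 0.0953, FDR = 0.000506), and PH-CM was lower than CO-CM by 0.43 (SE 0.0955, FDR = 0.00513). PH-CM against UNX gave 0.11 (95% interval -0.11 to 0.32, FDR = 0.331).

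Pmaip1, on chromosome 18, encodes NOXA, which binds MCL1 and favours its breakdown. It stood at 7.72, 7.58 and 5.98 CPM in UNX, 4.15, 4.37 and 4.75 in CO-CM and 3.93, 5.34 and 4.53 in PH-CM. UNX lay above both media, and the media overlapped. Pmaip1 fell by 0.68 on the log2 scale with CO-CM (SE 0.138, FDR = 0.00131) and by 0.62 with PH-CM (SE 0.139, FDR = 0.00197). Between the media the difference was 0.05 (95% interval -0.26 to 0.37, FDR = 0.793). Bad (chr19:6941861-6951899, plus strand), whose protein is held inactive by survival kinases through phosphorylation, stood at 27.0, 30.2 and 30.0 CPM in UNX, 29.6, 33.1 and 34.8 in CO-CM and 35.9, 38.3 and 38.1 in PH-CM. CO-CM overlapped UNX, and PH-CM lay above both. Bad rose by 0.37 on the log2 scale with PH-CM (SE 0.0705, FDR = 0.000788), with 0.16 for CO-CM (FDR = 0.0624) and 0.20 between the media (FDR = 0.0432, under the fold limit). Bad shares 524 exonic bases with Gpr137 on the opposite strand, and Gpr137 rose by 0.89 with PH-CM and by 0.71 with CO-CM. By the same defaults reads in the shared bases are counted for neither gene.

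**Figure D2:**
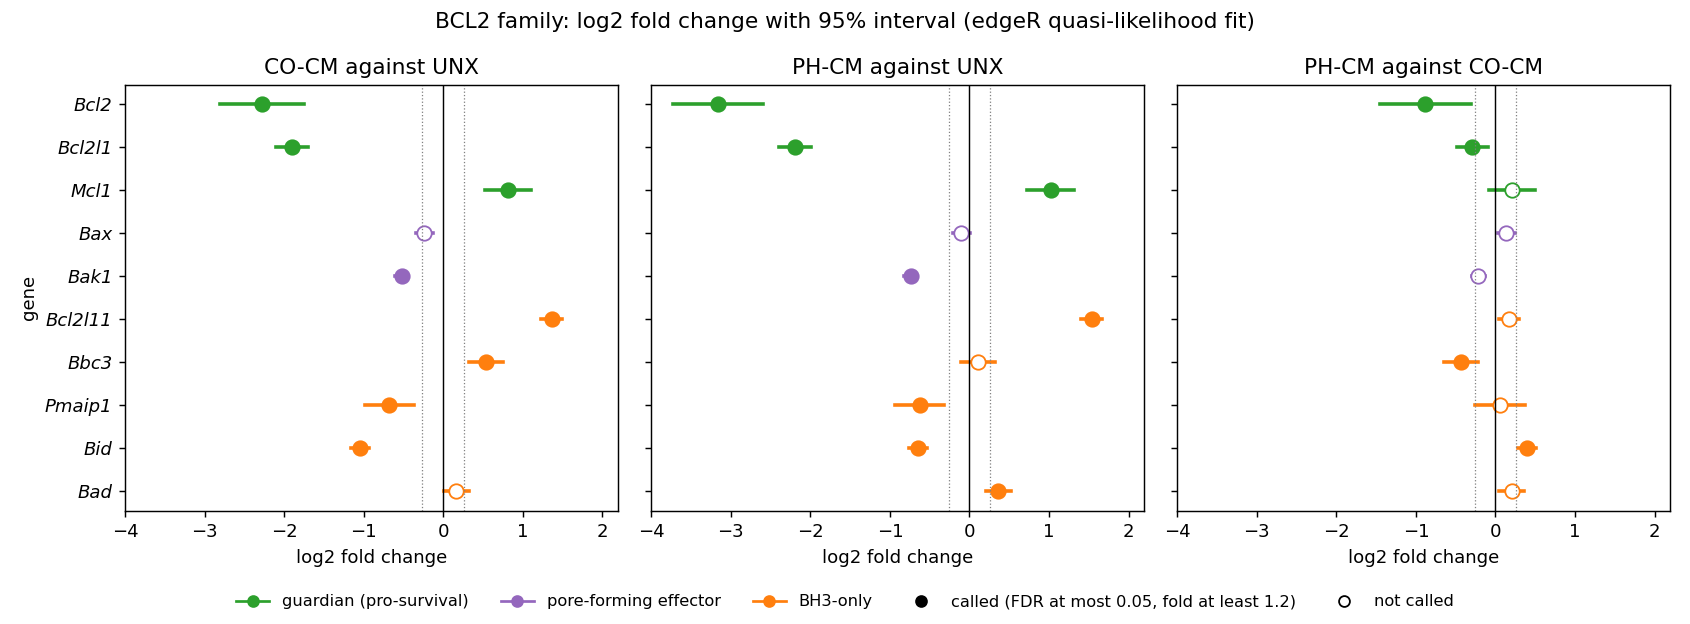
Log2 fold change (x axis) of the 10 genes (y axis, coloured by role) in the 3 comparisons, with 95% intervals; filled points were called and dotted lines mark the 1.2-fold limit. Bcl2 and Bcl2l1 lie furthest left in both comparisons with UNX (-3.17 and -2.20 with PH-CM), Bcl2l11 furthest right (1.53), and only 4 points are filled between PH-CM and CO-CM.

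Between the media, 4 of 10 members were called, 1 higher with PH-CM (Bid) and 3 lower (Bcl2, Bcl2l1 and Bbc3), against 27.1% of all genes tested, 12.2% higher and 15% lower. Another 4 (Bax, Bak1, Bcl2l11 and Bad) passed the FDR and failed only the fold limit. In total, 8 of 10 passed the FDR alone, against 37.9% of all genes. Mcl1 and Pmaip1 passed neither the FDR nor the fold limit. Under other settings of the fit, given below, this FDR reached 0.167 for Bax, 0.126 for Bad and 0.105 for Bcl2l11. For Bak1 it stayed at 0.00971 or less. At a fold limit of 2 instead, 4 members were called with each medium against UNX and 0 between the media, where 18% (PH-CM), 13.8% (CO-CM) and 5.12% (between the media) of all genes were. In CPM, the groups did not overlap for 8 of 10 members, where 50.2% of all genes did not. The corresponding counts were 9 of 10 for each medium against UNX, where 77.7% of all genes did not overlap for PH-CM and 72% for CO-CM. The median log2 fold change of the members was -0.36 with PH-CM, -0.38 with CO-CM and 0.10 between the media, beside 0.01, 0.00 and -0.01 over all genes. The members' calls cover both survival and death genes in both directions, and their median says nothing of either role.

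Levels of different genes were compared by RPKM. Beside Bid and Bad, exonic bases are shared with another gene by Bak1 (437 bases, Ggnbp1), Bax (192, Gm45808) and Bcl2 (558, D630008O14Rik). By the counting defaults given above, reads in such bases are left out, so the RPKM of these genes may be too low. Mcl1 was the most abundant member in every group, at 152 ± 20.7 (SD, n = 3) in UNX, 255 ± 34.5 in CO-CM and 297 ± 26.1 in PH-CM. In UNX, Bcl2l1 (60.1 ± 1.98) and Bak1 (58.6 ± 1.82) followed with overlapping ranges, and then Bax (49.7 ± 1.56). Bid was at 22.4 and Bad at 14.9. Bbc3 (6.95) and Bcl2l11 (6.43) overlapped below them, as did Bcl2 (3.21) and Pmaip1 (2.76) at the bottom. The order was different with conditioned medium. In CO-CM, Bax (40.1) and Bak1 (38.8) came after Mcl1, and Bad (15.9), Bcl2l11 (15.7) and Bcl2l1 (15.3) overlapped in the middle. In PH-CM, Bcl2l11 (17.9 ± 0.334) lay above Bcl2l1 (12.6 ± 1.08) without overlap, and Bid (13.7) overlapped Bcl2l1. Bcl2 was last in both, at 0.629 in CO-CM and 0.343 in PH-CM.

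Summed by role, the RPKM of the 3 guardians was 193 to 233 in UNX, 233 to 300 in CO-CM and 284 to 334 in PH-CM. The share of Mcl1 in that sum was 67.5% to 73.4% in UNX, 93.3% to 95.3% in CO-CM and 95.2% to 96.5% in PH-CM. Bcl2l1 made up 25.3% to 30.7% of it in UNX, 4.51% to 6.42% in CO-CM and 3.41% to 4.61% in PH-CM. The transcripts of these 3 guardians in treated cells were thus almost all Mcl1, while their sum was no lower than in UNX. Other guardians were also expressed, with Bcl2a1b at 14.0 RPKM in UNX, 20.8 in CO-CM and 17.5 in PH-CM and Bcl2l2 at 4.86, 5.51 and 5.70. Bcl2a1b and Bcl2l2 share exonic bases with another gene as well (401 and 594), so their RPKM may be too low. With the 5 other guardian genes in the sum, the share of Mcl1 was 61.5% to 66.7% in UNX, 83.7% to 86.5% in CO-CM and 87.8% to 89.1% in PH-CM. The effector sum was 105 to 112 in UNX, 76.9 to 81.0 in CO-CM and 77.1 to 79.7 in PH-CM. The BH3-only sum was 52.1 to 54.5 in UNX, 51.3 to 54.2 in CO-CM and 58.7 to 59.6 in PH-CM. It was of like size in UNX and CO-CM, but its make-up was not. Bcl2l11 took 11.5% to 12.4% of it in UNX, 26.8% to 31.2% in CO-CM and 29.7% to 31.2% in PH-CM, and Bid took 40.6% to 42.9%, 18.1% to 20.3% and 22.5% to 23.7%. The ratio of Bcl2l11 to Bcl2l1 was 0.0990 to 0.113 in UNX, 0.831 to 1.23 in CO-CM and 1.32 to 1.56 in PH-CM. These sums are of transcripts, not of protein, and no test was made on them.

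**Figure D3:**
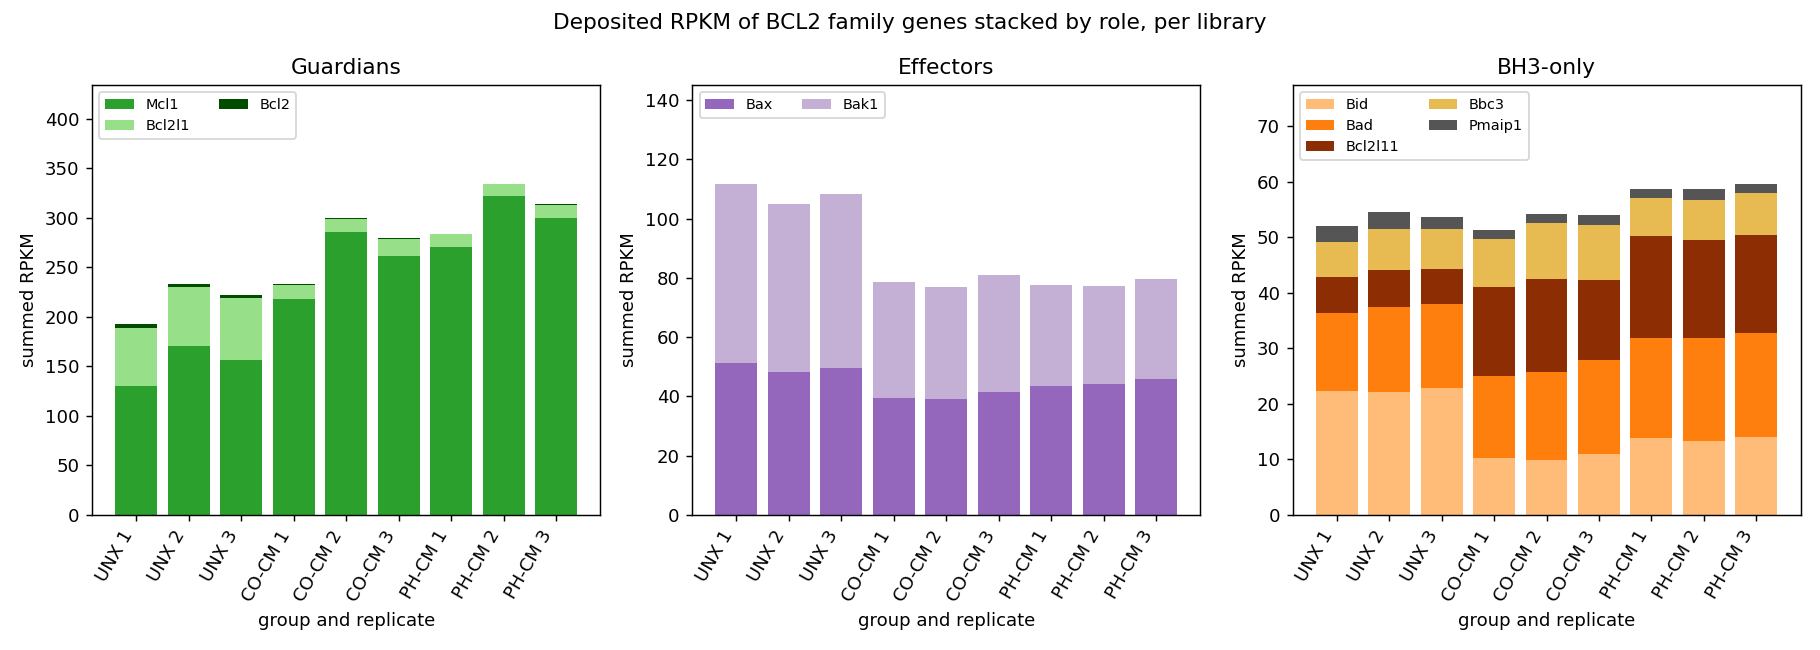
Deposited RPKM (y axis, linear from 0) of guardians, effectors and BH3-only genes, stacked by gene for each of the 9 libraries (x axis). Mcl1 fills 67.5% to 73.4% of the guardian bar in UNX and 93.3% or more with either medium, and within the BH3-only bar the Bcl2l11 segment widens as the Bid segment narrows.

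Around these 10 genes, 9 lists of apoptosis genes held 76 more, of which 70 passed the filter. PH-CM against UNX called 44 of them (62.9%), 20 higher and 24 lower. CO-CM against UNX called 39 (55.7%), 16 higher and 23 lower, and PH-CM against CO-CM called 20 (28.6%), 12 higher and 8 lower. These shares are close to the 63%, 57% and 27.1% of all genes, so the lists as a whole did not stand apart. Without Bik, the single listed gene that passed the filter through 1 group alone, 43, 38 and 20 of 69 were called. Bcl2a1a, Bcl2l10, Hrk, Bcl2l14, Bcl2l15 and Trp73 did not pass the filter.

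The closest relatives included the largest changes of the BH3 group. Bmf, a BH3-only gene whose protein is tied to the cytoskeleton, stood at 1.76, 3.27 and 2.10 CPM in UNX, 20.2, 23.5 and 18.7 in CO-CM and 20.1, 20.7 and 17.4 in PH-CM. Both media raised it far above every UNX library, by 3.12 on the log2 scale with CO-CM (FDR = 2.31e-07) and 3.02 with PH-CM (FDR = 1.89e-07). Between the media Bmf differed by -0.10 (FDR = 0.669). Bik, another BH3-only gene, had 98 to 104 reads in UNX, 6 to 28 in CO-CM and 6 to 10 in PH-CM. It passed the filter only through UNX, and its log2 fold changes of -2.36 and -3.54 are therefore not evidence beyond that filter. Bnip3l, which also serves mitophagy, rose by 1.19 with CO-CM (FDR = 3.33e-05) and by 1.10 with PH-CM (FDR = 4.43e-05). Without Bik, 2 of the 4 tested genes in this list rose and 0 fell with each medium, where 31.3% of all genes rose with PH-CM and 28% with CO-CM, and 0 were called between the media. Among 3 other guardians, Bcl2l2 (BCL-W) rose by 0.29 with PH-CM (FDR = 0.00202), a value under the fold limit without UNX replicate 2 (0.26) or 3 (0.24). With CO-CM it was at 0.25 (FDR = 0.00517), just under the fold limit. Bcl2a1b rose by 0.64 with CO-CM (FDR = 0.00415) and was at 0.37 with PH-CM (FDR = 0.0519). Between the media, Bcl2l2 (0.04, FDR = 0.689) and Bcl2a1b (-0.26, FDR = 0.210) were not called. The Bcl2a1 genes are near-identical copies, so their counts are uncertain. The divergent relatives Bcl2l12 and Bcl2l13 fell with each medium, by 0.32 and 0.34 with PH-CM. Bcl2l12 shares exonic bases on the opposite strand with the antisense gene Gm15545 (572 bases) and with Irf3 (88 bases). By the counting defaults reads in these bases are left out, so the Bcl2l12 counts lack them and its value is uncertain. The call of Bcl2l12 with PH-CM was lost without UNX replicate 1 (-0.26, FDR = 0.0528) and without PH-CM replicate 2 (-0.27, FDR = 0.0596).

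At the mitochondrial membrane, 6 of 7 partner genes fell with PH-CM and 4 of 7 with CO-CM, and 0 rose, where 31.7% and 28.9% of all genes fell. Vdac2, which encodes the channel that holds BAK, was at 304 to 337 CPM in UNX, 238 to 276 in CO-CM and 197 to 209 in PH-CM. It fell by 0.66 on the log2 scale with PH-CM (FDR = 3.87e-06), by 0.31 with CO-CM (FDR = 0.00122) and by 0.36 from CO-CM to PH-CM (FDR = 0.00124), the single call of that list between the media. Its fall with CO-CM was under the fold limit without CO-CM replicate 1 (-0.25). Vdac1, Vdac3 and Dnm1l, the last a gene for mitochondrial fission, fell by 0.52, 0.59 and 0.45 with PH-CM. Of 9 apoptosome and caspase genes, 2 rose and 3 fell with PH-CM, and 2 rose and 4 fell with CO-CM, in total 55.6% and 66.7% called beside 63% and 57% of all genes. Cycs, the gene for cytochrome c, fell by 1.29 with PH-CM (FDR = 8.94e-07) and by 1.17 with CO-CM (FDR = 2.57e-06).

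In the list of inhibitors of apoptosis and their antagonists, 3 rose and 4 fell of 8 with PH-CM, and 2 rose and 3 fell with CO-CM, in total 87.5% and 62.5% called beside 63% and 57% of all genes. Birc3, the gene for cIAP2, was at 18.0 to 21.7 CPM in UNX, 35.5 to 43.9 in CO-CM and 50.6 to 61.5 in PH-CM. It rose by 1.00 with CO-CM (FDR = 8.53e-06), by 1.52 with PH-CM (FDR = 2.87e-07) and by 0.52 between the media (FDR = 0.00206). Birc5 (survivin), which also serves cell division, fell from 88.5 to 92.2 CPM in UNX to 14.9 to 19.9 in CO-CM and 8.81 to 10.1 in PH-CM, and its log2 fold change was -2.38 and -3.27. Between the media, 2 of this list were higher with PH-CM and 3 lower, where 12.2% and 15% of all genes were.

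The death receptor arm was the list with most calls between the media. Of its 8 genes, 6 were higher with PH-CM than with CO-CM and 1 was lower, where 12.2% and 15% of all genes were. Fas, the receptor for Fas ligand, stood at 3.03 to 3.95 CPM in UNX, 4.30 to 4.61 in CO-CM and 6.42 to 6.62 in PH-CM, with a log2 fold change of 0.55 between the media (FDR = 0.00306). Tnfrsf10b, the mouse TRAIL receptor, fell by 1.39 with CO-CM (FDR = 6.45e-05) and by 0.84 with PH-CM (FDR = 0.00158), and was higher with PH-CM than CO-CM by 0.56 (FDR = 0.0395). That difference between the media was no longer called without any 1 of the 6 treated libraries (0.50 to 0.62, FDR = 0.0621 or more). The other genes higher with PH-CM than CO-CM were Tnfrsf1a, Ripk1, Casp8 and Cflar, by 0.41, 0.41, 0.43 and 0.36. The gene that was lower was Fadd (-0.31). Bid, the member that caspase-8 acts on, was also higher with PH-CM than CO-CM, as given above. Against UNX, 4 of these 8 genes rose and 2 fell with PH-CM, and 1 rose and 2 fell with CO-CM. In total, 75% and 37.5% were called beside 63% and 57% of all genes. Tnfrsf1a fell with CO-CM (-0.33, FDR = 4.82e-05) and was not called with PH-CM (0.07, FDR = 0.134). Fas was the gene that rose with CO-CM (0.39, FDR = 0.0100), a call lost without UNX replicate 3 (0.29, FDR = 0.0561).

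Genes for transcription factors that act on the family were mixed, with 4 higher and 4 lower of 12 with PH-CM and 5 higher and 4 lower with CO-CM, in total 66.7% and 75% called beside 63% and 57% of all genes. Myc was at 82.6 to 106 CPM in UNX, 9.93 to 14.8 in CO-CM and 7.82 to 8.56 in PH-CM, and fell by 2.91 with CO-CM (FDR = 5.40e-08) and by 3.46 with PH-CM (FDR = 1.20e-08). E2f1 fell by 1.31 and 1.23. Foxo3 and Foxo1, whose products switch on Bcl2l11 when survival signaling ceases, rose with each medium, by 0.72 and 0.42 with CO-CM and by 0.54 and 0.39 with PH-CM. Trp53, the gene for p53, fell by 0.61 with CO-CM (FDR = 1.53e-05) and by 0.52 with PH-CM (FDR = 4.02e-05). Ddit3 (CHOP), a stress-induced factor, was highest in CO-CM, as Bbc3 was, with 23.4 to 26.2 CPM in UNX, 32.6 to 35.9 in CO-CM and 20.5 to 24.3 in PH-CM. It rose by 0.47 with CO-CM (FDR = 0.000246) and was lower with PH-CM than CO-CM by 0.65 (FDR = 9.24e-05). Stat3, which takes part in Mcl1 and Bcl2l1 transcription, rose by 0.60 with CO-CM and by 1.13 with PH-CM, and by 0.54 between the media (FDR = 8.02e-05).

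Of 16 genes whose products act on BCL2 family proteins, 4 rose and 2 fell with PH-CM, 3 rose and 3 fell with CO-CM, and 3 were higher and 0 lower with PH-CM than CO-CM. With each medium against UNX 37.5% of the list was called, below the 63% and 57% of all genes, and between the media 18.8% against 27.1%. Pim1, a kinase gene whose product phosphorylates BAD, stood at 24.6, 48.5 and 46.1 CPM in UNX, 43.1, 76.7 and 75.4 in CO-CM and 98.9, 143 and 154 in PH-CM. The PH-CM libraries were above all others, and UNX and CO-CM overlapped. Pim1 rose by 1.73 with PH-CM (FDR = 0.000261), by 0.71 with CO-CM (FDR = 0.0433) and by 1.02 between the media (FDR = 0.0153). The CO-CM call was lost without UNX replicate 1 or 3, CO-CM replicate 2 or 3, or PH-CM replicate 2 or 3 (0.45 to 0.81, FDR = 0.0508 to 0.136), and the call between the media was lost without PH-CM replicate 3 (0.90, FDR = 0.0570). Pim3 rose by 0.82 with PH-CM and by 0.53 between the media. Mapk8 (JNK1) fell by 0.65 with CO-CM (FDR = 6.12e-06) and was higher with PH-CM than CO-CM by 0.41 (FDR = 0.000596).

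**Figure D4:**
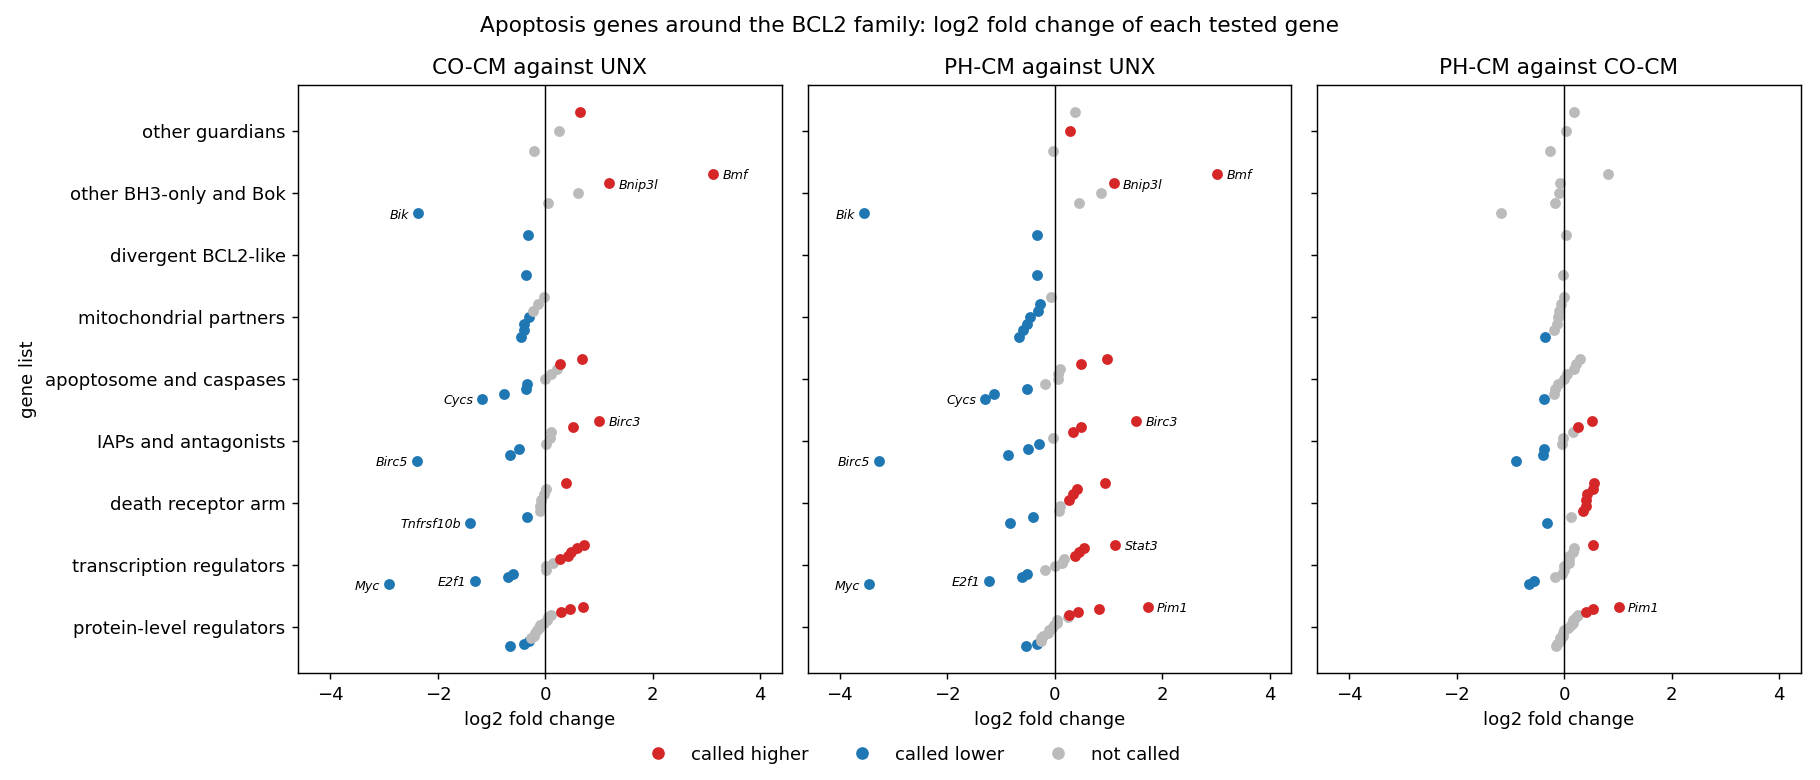
Log2 fold change (x axis) of the 70 tested genes of 9 apoptosis lists (y axis) in the 3 comparisons, 1 point per gene; red and blue points were called higher and lower, and most called genes at 1 or more on the log2 scale are named. Bmf stands furthest right in both comparisons with UNX (3.12 and 3.02), and between the media 6 of 8 points of the death receptor arm are red.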

How the data were processed

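RNA-Seq of 9 BMDM libraries was analysed, with groups and replicate numbers taken from the labels. Upstream, the authors used FastQC and AfterQC for quality control and trimming, STAR for alignment (GRCm38) and featureCounts 1.6.2 for assignment to genes. The deposited counts are raw reads per gene. The counting parameters the study lists hold no strand, pair or overlap option, so by the tool's defaults strand was ignored, mates were counted separately and reads in exons of more than 1 gene were left out. In each library 81.4% to 83.8% of counts under 20 were even, as counting both mates of a pair gives, and halving the counts was an alternative. The authors also deposited RPKM, which scales counts to gene length and library depth, and these values were used for levels between genes. Their comparison tables hold log2 fold changes, mean log2 CPM, p-values and FDR and were not used.

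Counts were fitted in R 4.3.3 with edgeR 4.0.16. Genes above 1 CPM in at least 3 libraries were kept, scaled by TMM and fitted together, with a mean for each of 3 groups and no block. The limits on FDR and fold follow the study, whose own test was edgeR's exact test of each pair of groups, run here as an alternative. Intervals are 95% intervals of the fit. Benjamini-Hochberg adjustment ran over all 11950 genes tested. An exact permutation test of 3 against 3 libraries cannot go below p = 0.1, so none was used. Nothing in the sources says that replicates are separate animals, so p-values measure the spread between cultures. Depth was 62017933 to 84314201 reads. CPM and folds depend on the filter, the scaling and the thresholds, which were varied together with the fit (DESeq2 1.42.0, edgeR's exact test) and by leaving out libraries. The fit was tested on simulated counts with known changes. These counts were drawn independently for each library, so what libraries of the same number share was not part of that test.

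The members and all gene lists were chosen with earlier results of these data known. Named genes are the 10 members and, for each wider list, those with the largest absolute log2 fold changes in the comparisons. Bnip3l, Stat3, Foxo1, Foxo3, Trp53 and the remaining genes of the death receptor arm were named after their values were seen. The symbol March5 is stored as a number in the tables and was matched by its Ensembl identifier. Deviations from the group means correlated at r = 0.276 to 0.484 between libraries with the same number (9 pairs) and at -0.376 to 0.0423 between others (18 pairs), so the numbers were taken to mark shared cultures. The printed fit has no block, and the fit with the number as a block was an alternative. Genome positions come from GENCODE for GRCm38. Promoters come from RefSeq, which matched 9 of the 10 members, and no sequence of Pmaip1 is shown. The values of 1 gene of the wider lists are not reported here.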

Additional observations from a re-analysis of the deposited data

How the results depend on the processing

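Across 20 alternatives other than the thresholds, 8 members were called for PH-CM against UNX in every one, 8 to 9 for CO-CM against UNX and 2 to 4 for PH-CM against CO-CM. No member reversed its direction in a comparison where it was called. The difference of Pmaip1 between the media, which was not called, ran from -0.06 to 0.17 on the log2 scale across the settings. Leaving out single libraries gave 8 to 8, 8 to 9 and 2 to 4 members, with 2 left without CO-CM replicate 3 and without PH-CM replicate 2, and 40 to 45, 34 to 39 and 18 to 21 genes of the wider lists. With the replicate number as a block, which pairs the libraries, 8, 8 and 4 members were called, the same as without it, and no member's call changed. The FDR alone was also passed in that fit by Bax for PH-CM against UNX (0.0277) and Bad for CO-CM against UNX (0.00544). Mcl1 passed it between the media (0.000764), and each of these stayed under the fold limit. Without the 3 libraries numbered 1, chosen after seeing the data, the counts were again 8, 8 and 4, and Bcl2 was lower with PH-CM than CO-CM by 1.35 on the log2 scale (FDR = 9.15e-05). A fold threshold of 2 left 4, 4 and 0 members and 11, 9 and 1 genes of the wider lists. Without a fold threshold, PH-CM against CO-CM called 8 members and 32 wider genes, where 37.9% of all genes passed. Of these members, Bax, Bcl2l11 and Bad did not pass the FDR in every alternative. Bax passed for CO-CM against UNX with library size alone (-0.31), no filter (-0.28), filterByExpr (-0.27), without UNX replicate 2 (-0.27) and without CO-CM replicate 3 (-0.27). The cause of these shifts was not tested. Scaling moved the median of all genes by at most 0.07 on the log2 scale.

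Bcl2 in PH-CM rests on 126 to 335 reads per library, and among the 10 members the calls of Bcl2 and Bcl2l1 between the media are the ones that leaving out single libraries undid. RNA levels were measured in 3 cultures per group, at 1 time, with 1 pooled medium per group.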
